A study of Mus musculus with 6 samples.

Results

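The small leucine-rich proteoglycans (SLRPs) are secreted matrix proteins built around a stack of leucine-rich repeats, and 9 of their genes were examined in bone marrow mesenchymal stem cells (BMMSCs) treated with siRNA against Tet1 and Tet2. The members were the rows of the expression table whose symbol was Dcn, Bgn, Aspn, Fmod, Lum, Prelp, Omd, Ogn or Podn, which gave 9 of the 36870 gene symbols, 1 row each. The rows were picked by gene name and not by a measured value, although the list was drawn up with earlier results of these data known. Of the 9 genes, 8 reached a mean over the 6 libraries of 0.1 RPKM or more (a read count corrected for transcript length and sequencing depth) and were tested, and Lum was not.

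SLRPs bind collagen fibrils through their repeats and regulate how the fibrils grow in width and how they are spaced. Several of them also hold growth factors of the TGF-beta family in the matrix, and biglycan that has been released from the matrix can signal through Toll-like receptors. In bone and marrow stroma they are made by mesenchymal and osteogenic cells, and mice that lack biglycan develop low bone mass. Decorin, biglycan and asporin form class I, fibromodulin, lumican, PRELP and osteomodulin class II, osteoglycin belongs to class III, and podocan is a more distant relative. Tet1 and Tet2 are dioxygenases that oxidize methylated cytosine in DNA, most of which sits in CG dinucleotides.

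The libraries were 3 control and 3 siTet1/Tet2 libraries of BMMSCs from C57BL/6 mice, given as passage 2 in the labels and as passage one in the methods. Both groups came from marrow cells of femurs and tibias, freed of non-adherent cells after 48 h and kept for a further 14 days in medium with fetal bovine serum. The controls received non-targeting siRNA according to the labels and the methods on siRNA, although the sequencing methods call them vehicle, and the siTet1/Tet2 cells received siRNA against Tet1 together with siRNA against Tet2. The labels do not say whether the 3 libraries of a group came from separate mice or cultures, so the p-values measure the spread between these libraries, which may be technical. A transfected pool of adherent marrow cells is also a mixture, and in bulk RNA fewer cells of a type and less RNA per cell cannot be told apart.

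The targeted Tet2 was listed at 2.57, 4.08 and 3.71 RPKM in the controls and at 0.358, 0.238 and 0.202 RPKM in the siTet1/Tet2 libraries, and it fell by 1.80 on the log2 scale. Tet1 was weakly expressed and not tested, at 0.032, 0.098 and 0.050 RPKM in the controls (about 17, 46 and 23 reads) and at 0.001, 0.010 and 0.001 RPKM after siRNA, so that the groups did not overlap. Tet3, which was not targeted, was at 7.03 ± 1.55 and 7.66 ± 0.767 RPKM (SD, n = 3; adjusted p = 0.508 by limma). Replicate libraries correlated at 0.992 to 0.997 within a group and at 0.949 to 0.969 between groups, across genes. Stromal genes were clearly present (Pdgfrb at a control mean of 30.2 RPKM), but of the markers commonly used for these cells Thy1 (0.061 RPKM in controls) and Lepr (0.0627 RPKM) were close to 0. Macrophage markers were high in both groups, with Csf1r, the receptor that maintains macrophages, at 499.5 ± 20.5 RPKM in controls and 603.9 ± 22.4 RPKM after siRNA (SD, n = 3).

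The members lie in 5 places in the mouse genome (GRCm38, GENCODE M21), several of them side by side. Aspn (chr13:49544443-49567565), Omd (chr13:49582462-49592822) and Ogn (chr13:49608046-49624501) follow each other on the plus strand of chromosome 13, with gaps of 14.9 and 15.2 kb and the related gene Ecm2 11.7 kb before Aspn. Prelp (chr1:133910304-133921414, minus strand) and Fmod (chr1:134037254-134048277, plus strand) are 115.8 kb apart, and Dcn (chr10:97479609-97518143) and Lum (chr10:97565128-97572703) are 47.0 kb apart on the plus strand. No other protein-coding gene lies wholly inside any of these gaps. Bgn (chrX:73483602-73495933, plus strand) and Podn (chr4:108014791-108096445, minus strand) have no other member beside them. Aspn, Omd, Ogn and Ecm2 lie within Cenpp, a kinetochore gene on the opposite strand, whose exons share at most 7 bases with Aspn and 0 with Ogn and Omd.

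The promoters of Bgn and of the 3 neighbours on chromosome 13 are shown because Tet enzymes act on CG dinucleotides. Bgn supplied most of the SLRP message. The neighbours lie side by side and were all lower, as were all other members tested, and the sizes of their changes differed. Each window (RefSeq, GRCm38.p6) runs from 250 bases before to 50 bases after the gene's start, on the plus strand, 5′ to 3′, with every CG in capitals. The windows are chrX:73483351-73483650 for Bgn, chr13:49607765-49608064 for Ogn, chr13:49544193-49544492 for Aspn and chr13:49582212-49582511 for Omd.
Bgn: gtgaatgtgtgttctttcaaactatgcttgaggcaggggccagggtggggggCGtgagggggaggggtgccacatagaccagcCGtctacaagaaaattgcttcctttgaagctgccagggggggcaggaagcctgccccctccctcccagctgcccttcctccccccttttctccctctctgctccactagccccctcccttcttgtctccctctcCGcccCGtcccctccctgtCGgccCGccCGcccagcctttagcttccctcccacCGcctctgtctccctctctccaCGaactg
Ogn: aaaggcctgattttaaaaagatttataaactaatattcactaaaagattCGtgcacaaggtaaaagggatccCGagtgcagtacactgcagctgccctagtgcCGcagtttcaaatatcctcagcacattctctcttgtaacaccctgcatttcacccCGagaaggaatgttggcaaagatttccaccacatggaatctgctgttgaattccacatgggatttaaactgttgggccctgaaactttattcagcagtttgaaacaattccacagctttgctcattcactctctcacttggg
Aspn: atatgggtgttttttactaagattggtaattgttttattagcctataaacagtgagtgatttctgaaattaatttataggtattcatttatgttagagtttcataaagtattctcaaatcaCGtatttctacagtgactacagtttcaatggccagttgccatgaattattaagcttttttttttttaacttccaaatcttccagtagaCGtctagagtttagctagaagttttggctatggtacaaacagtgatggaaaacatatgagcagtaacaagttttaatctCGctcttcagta
Omd: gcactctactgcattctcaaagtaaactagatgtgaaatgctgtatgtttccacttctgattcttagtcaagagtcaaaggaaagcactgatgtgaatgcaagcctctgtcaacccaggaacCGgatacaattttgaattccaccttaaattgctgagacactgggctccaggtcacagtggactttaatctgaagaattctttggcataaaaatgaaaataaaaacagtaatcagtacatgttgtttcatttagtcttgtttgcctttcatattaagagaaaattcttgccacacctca

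Bgn had 9 CG in its window, Ogn 4, Aspn 3 and Omd 1, against a median of 7 (quartiles 3 and 20) over the 32851 promoter windows of the table. Fmod had 3, Prelp 7, and Podn 41 and 7 in its 2 windows, while Dcn and Lum had no entry. The 3 windows on chromosome 13 thus held fewer CG than the median promoter, and Bgn somewhat more. TATAAA, searched on both strands, was found in the windows of Ogn and Aspn and in 13.6% of all windows. TGTGGT, the core of the RUNX recognition sequence, was found on either strand only in Ogn among the members, 65 bases before the start on the minus strand, and in 16.8% of all windows. Such matches describe the letters in these windows, and methylation of the promoters was not measured here.

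All 8 SLRP genes tested were lower after siRNA against Tet1 and Tet2, and in each of them the 3 siTet1/Tet2 libraries lay below the 3 controls. Omd and Podn averaged 0.015 and 0.0767 RPKM after siRNA and 0.252 and 0.673 RPKM in controls. They thus passed the limit of 0.1 RPKM only through the controls, so their being lower is in part built into the choice of genes tested. Of all 13266 genes tested, 29.8% were lower at an adjusted p under 0.05 (limma on log2(RPKM + 1), Benjamini-Hochberg over all genes), 14.7% were higher, and 35.9% had all 3 siTet1/Tet2 libraries below all 3 controls. With an unadjusted p under 0.05 and a change over 2-fold, the thresholds used in the study, 5 members were lower (Bgn, Ogn, Prelp, Fmod and Dcn) against 5.63% of all genes. The median log2 change of the 8 members was -1.39, beside -0.09 for all genes tested. The added 1 RPKM compresses the log2 change of the weakly expressed members, so their ratios of mean RPKM are given too, and with the ratio of means as the fold change all 8 passed those thresholds, against 11.8% of all genes.

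**Figure D1:**
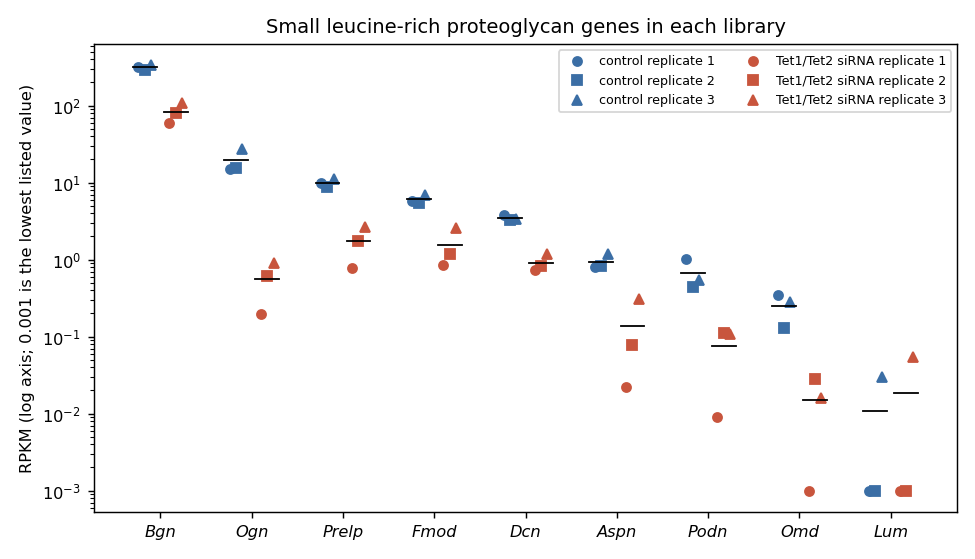
RPKM of each SLRP gene in each library on a log axis, with 3 control and 3 siTet1/Tet2 libraries as points and the group means as short horizontal lines. For every member but Lum, the 3 siTet1/Tet2 points lie below the 3 control points, and Bgn stands above all other members in both groups.

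Biglycan, encoded by Bgn, carries chondroitin or dermatan sulfate chains and was by far the most abundant member. Bgn was at 318.9, 290.6 and 334.4 RPKM in the controls and at 58.7, 80.1 and 109.6 RPKM after siRNA. The groups did not overlap, and the highest siTet1/Tet2 library was still 2.65-fold below the lowest control. The means were 314.6 ± 22.2 and 82.8 ± 25.5 RPKM (SD, n = 3), a 3.80-fold difference, and the log2 change was -1.96 (SE 0.19, adjusted p = 0.000107 by limma).

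Decorin, encoded by Dcn, is the closest relative of biglycan, binds type I collagen and holds TGF-beta, and it was expressed far less than Bgn in these cultures. Dcn was at 3.80, 3.26 and 3.38 RPKM in the controls and at 0.743, 0.821 and 1.18 RPKM after siRNA. Its means of 3.48 ± 0.281 and 0.913 ± 0.230 RPKM (SD, n = 3) differed 3.81-fold, and the log2 change was -1.23 (SE 0.11, adjusted p = 5.76e-05 by limma). The ratio of means of Dcn was thus close to that of Bgn, although the levels of these genes differed widely.

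Asporin, encoded by Aspn, is a class I member with an aspartate-rich start and no glycosaminoglycan chain. Aspn was at 0.814, 0.823 and 1.18 RPKM in the controls and at 0.022, 0.077 and 0.311 RPKM after siRNA. Its siTet1/Tet2 libraries were the more uneven group, and the lowest of them rested on an estimated 2 reads. The ratio of the means, 0.939 ± 0.209 to 0.137 ± 0.153 RPKM (SD, n = 3), was 6.87, and the log2 change was -0.77 (SE 0.11, adjusted p = 0.000900 by limma).

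Fibromodulin (Fmod) and PRELP (Prelp), class II proteins that bind fibrillar collagens, sit on the same stretch of chromosome 1. Fmod was at 5.86, 5.41 and 6.97 RPKM in the controls and at 0.844, 1.18 and 2.55 RPKM after siRNA, a 3.98-fold difference of means and a log2 change of -1.54 (SE 0.22, adjusted p = 0.000793 by limma). Prelp was at 9.82, 8.71 and 11.0 RPKM in the controls and at 0.785, 1.77 and 2.64 RPKM after siRNA, a 5.69-fold difference of means and a log2 change of -2.04 (SE 0.23, adjusted p = 0.000214 by limma). In both genes the siTet1/Tet2 libraries varied about 3-fold among themselves and none reached the controls. Prelp overlaps the antisense gene Gm15851 by at most 700 exonic bases, a sum over pairs of annotated exons. Since the library kit does not mark strand, reads from that overlap cannot be told apart.

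Osteomodulin (Omd), a keratan sulfate proteoglycan of bone, was the weakest member tested. Omd was at 0.343, 0.131 and 0.283 RPKM in the controls, about 29, 10 and 21 reads at the estimated depth. After siRNA it was at 0.001, 0.028 and 0.016 RPKM, or about 0, 2 and 1 reads, so no ratio is given. It was lower in all 3 libraries (log2 change -0.30, SE 0.07, adjusted p = 0.0123 by limma), and this fitted value depends on the pseudocount. Lumican (Lum), a class II protein abundant in cornea and skin, was at the lowest listed value in 4 of the 6 libraries and at 0.030 and 0.054 RPKM in control 3 and siTet1/Tet2 replicate 3, so a difference was not detectable at this depth.

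Osteoglycin, encoded by Ogn and first purified from bone, showed the largest change of the members. Ogn was at 15.2, 15.4 and 27.7 RPKM in the controls and at 0.194, 0.610 and 0.898 RPKM after siRNA. Every siTet1/Tet2 library was at least 16.9-fold below every control. The means were 19.4 ± 7.18 and 0.567 ± 0.354 RPKM (SD, n = 3), a 34.2-fold difference, and the log2 change was -3.67 (SE 0.25, adjusted p = 1.82e-05 by limma). Ranked from the most negative log2 change, Ogn was number 19 of the 13266 genes tested.

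Podocan, encoded by Podn, is a class V member that binds type I collagen. Podn was at 1.03, 0.446 and 0.543 RPKM in the controls and at 0.009, 0.112 and 0.109 RPKM after siRNA, with about 1, 16 and 14 reads behind the latter. The ratio of means was 8.78, and the log2 change was -0.62 (SE 0.12, adjusted p = 0.00420 by limma). Podn thus had a larger ratio of means than Bgn and a smaller fitted change, because its level is of the order of the pseudocount.

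**Figure D2:**
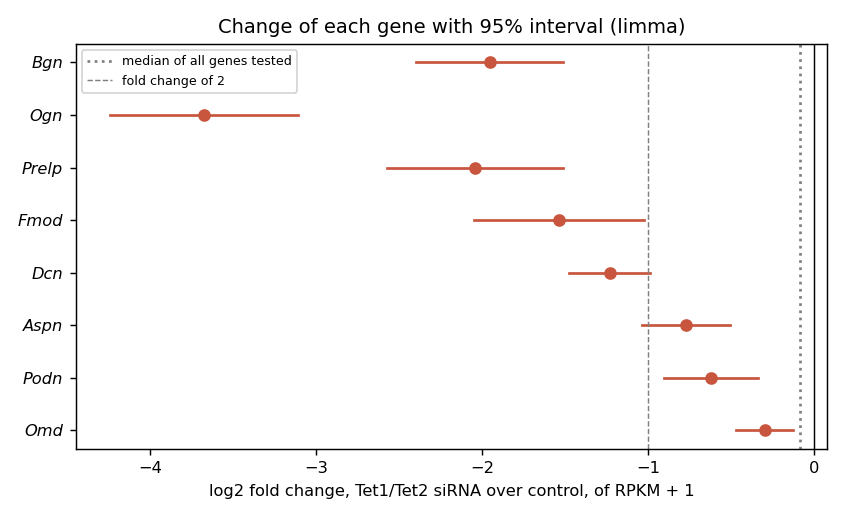
log2 change of each tested SLRP gene from control to siTet1/Tet2 on the log2(RPKM + 1) scale, with the 95% interval of the limma fit as bars. All 8 intervals lie below 0, from Ogn at -3.67 to Omd at -0.30, the dotted line marks the median of all genes tested at -0.09 and the dashed line a fold change of 2.

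Among the siTet1/Tet2 libraries, replicate 1 was the lowest for all 8 genes tested, and replicate 3 was the highest for 6 and replicate 2 for the others. Among the controls, control 2 was the lowest for 6 genes and control 3 the highest for 5. Among the siTet1/Tet2 libraries the median of the stromal markers also rose from replicate 1 to 3, at 1.90, 2.37 and 2.83 on the log2(RPKM + 0.1) scale. In controls 1, 2 and 3 it was 4.19, 4.23 and 4.53, so it was lowest in control 1 and not in control 2. The part of this median in the spread of the SLRP genes was not tested. Without siTet1/Tet2 replicate 1 all 8 genes were still lower at an adjusted p under 0.05, and so they were without each other library in turn.

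The SLRP message as a whole was mostly biglycan, and became more so after siRNA. The summed level of the 9 genes was 355.3 ± 30.3 RPKM in controls and 87.8 ± 28.1 RPKM after siRNA (SD, n = 3), a 4.05-fold difference. Without Bgn the sum was 40.7 ± 9.09 against 4.98 ± 2.60 RPKM, an 8.17-fold difference. Bgn made up 88.6% ± 1.63 of the sum in controls and 94.6% ± 1.18 after siRNA, and its share was higher in each siTet1/Tet2 library than in any control. The share of Ogn went the other way, from 5.39% ± 1.57 to 0.600% ± 0.247.

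Since RPKM is scaled by length, the levels of different members can be ordered. In controls the order was Bgn, Ogn, Prelp, Fmod, Dcn, Aspn, Podn, Omd and Lum, and each neighbouring pair was separated in all libraries except Aspn and Podn, whose ranges overlapped. After siRNA Bgn was still apart from the rest, with a mean 47.9-fold above that of Prelp. Each later pair of neighbours, in the order Prelp, Fmod, Dcn, Ogn, Aspn, Podn, Lum and Omd, had overlapping ranges. Within each of the 3 siTet1/Tet2 libraries, however, Fmod was above Dcn, Dcn above Ogn and Ogn above Aspn, whereas Prelp and Fmod, Aspn and Podn, and Lum and Omd changed places between libraries. Ogn, above Dcn in each control, was thus below Dcn in each siTet1/Tet2 library.

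Set against Bgn within the same library, the percentages of Ogn, Prelp, Podn and Omd did not overlap between the groups, and those of Dcn, Fmod and Aspn did. Over all genes, 2.76% had a percentage of Bgn that was lower in all 3 siTet1/Tet2 libraries than in all 3 controls. The Omd percentages after siRNA rest on about 0, 2 and 1 reads. Podn rests on about 1 read in siTet1/Tet2 replicate 1, and its groups came as near as 0.153% in control 2 and 0.140% in siTet1/Tet2 replicate 2. Ogn was at 4.75%, 5.29% and 8.28% of the Bgn level in the controls and at 0.330%, 0.761% and 0.819% after siRNA. Prelp was at 3.08%, 3.00% and 3.29% in the controls and at 1.34%, 2.21% and 2.40% after siRNA, again without overlap. Dcn was at 1.19%, 1.12% and 1.01% in the controls and at 1.26%, 1.02% and 1.07% after siRNA. For a single percentage, 3 against 3 libraries cannot give a p under 0.1 in the exact two-sided permutation test, and 0.1 was the p for Ogn, Prelp, Omd and Podn. In a fit over all genes centred on Bgn in each library and using the variance of each gene alone, Ogn was lower by a log2 difference of -3.01 (95% interval -4.05 to -1.98, adjusted p = 0.00486 by limma) and no other member passed, against 1.42% of all genes lower. Prelp differed by -0.61 (-1.26 to 0.03, adjusted p = 0.0613), and Dcn by 0.13 (-0.22 to 0.47, adjusted p = 0.375). Omd, with 0.1 RPKM added in this fit, differed by 0.40 (-0.49 to 1.29), opposite in direction to its percentages. Without siTet1/Tet2 replicate 1, Prelp also passed (adjusted p = 0.0126), and without siTet1/Tet2 replicate 3 Fmod (adjusted p = 0.0316) and Aspn (adjusted p = 0.0360) did.

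**Figure D3:**
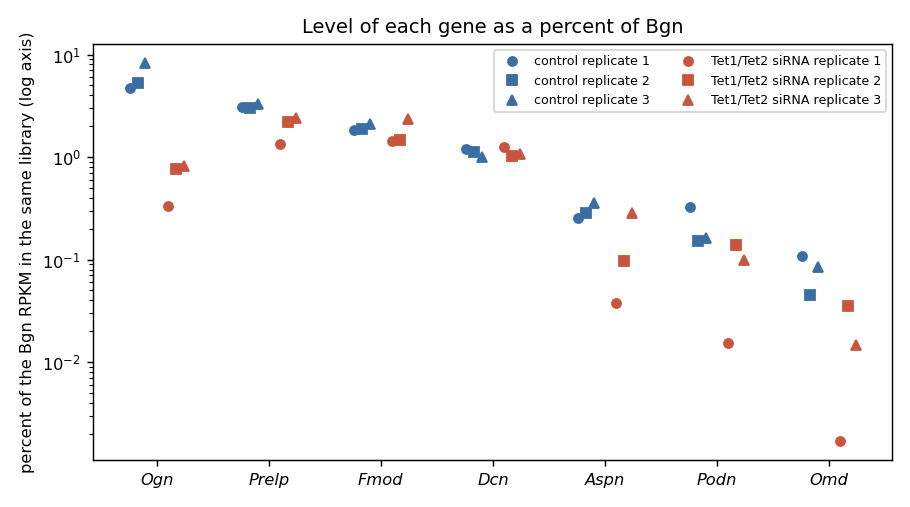
Level of each other tested SLRP gene as a percentage of the Bgn level in the same library, on a log axis, with 3 control and 3 siTet1/Tet2 libraries as points. The points of Ogn, Prelp, Podn and Omd are separate between the groups, from 4.75% to 8.28% against 0.330% to 0.819% for Ogn, while those of Dcn, Fmod and Aspn overlap. The siTet1/Tet2 points of Omd rest on about 0, 2 and 1 reads.

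The members were then compared with the median of 12 stromal markers in each library, on the log2(RPKM + 0.1) scale. These 12 did not move as one. On the log2(RPKM + 1) scale their changes ran from -3.00 (Cxcl12) to 1.67 (Vcam1). Relative to these markers Ogn was lower by a log2 difference of -3.03 (adjusted p = 1.11e-22 by limma) and Prelp by -0.63 (adjusted p = 0.0347), which made 2 of 8 members lower against 1.25% of all genes. Centring gives all genes the same library noise, and the moderated fit then takes the variance of a gene almost wholly from genes of like level. The spread of the gene itself therefore hardly enters its p-value. With the variance of each gene alone, a fit chosen after the data were seen, Ogn passed (-3.94 to -2.12, adjusted p = 0.00626) and Prelp did not (-1.27 to 0.00, adjusted p = 0.0553). In that fit Bgn differed from the stromal markers by -0.02 (-0.24 to 0.20), Dcn by 0.11 (-0.40 to 0.61) and Fmod by -0.11 (-0.65 to 0.43). For Aspn, Podn and Omd the relative difference changed sign with the pseudocount (1.00, 1.15 and 1.48 with 1 RPKM, and -1.31, -1.33 and -1.49 with 0.01 RPKM), so no direction is given for them.

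Type I collagen forms the main fibril that SLRPs bind, and Col1a1 and Col1a2 were 6.77-fold and 5.72-fold lower by the ratio of means, more than Bgn, Dcn and Fmod and less than Ogn. Relative to the mean of Col1a1 and Col1a2, Ogn was lower by a log2 difference of -2.30 (adjusted p = 3.54e-09 in the moderated fit and 0.00501 with the variance of each gene, limma). In the moderated fit this was 1 of 8 members lower, against 0.392% of all genes. Dcn was higher by 0.84 (adjusted p = 0.0318 in the moderated fit and 0.0380 with the variance of each gene), a value that was 1.43 with a pseudocount of 1 and 0.74 with 0.01, where it did not pass (adjusted p = 0.0588). Bgn differed by 0.71 and Fmod by 0.62, which passed with the variance of each gene (adjusted p = 0.0163 and 0.0208) and not in the moderated fit (adjusted p = 0.139 and 0.109). The count of members higher than collagen was 2 in the moderated fit (Dcn and Omd, the latter subject to the pseudocount) and 4 with the replicate block. It ran from 0 with a pseudocount of 0.01 to 5 with 1. In the moderated fit 96.1% of all genes were higher, so that being higher relative to collagen is common to nearly the whole table. The share of all genes in the other fits is not given. Prelp differed by 0.10 (-0.55 to 0.74).

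**Figure D4:**
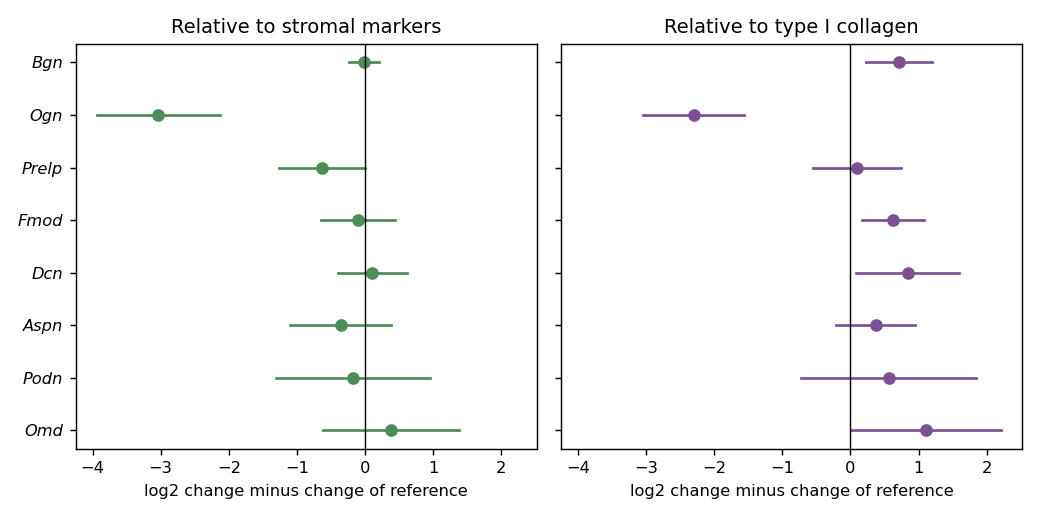
log2 change of each tested SLRP gene relative to the stromal markers and relative to type I collagen, on the log2(RPKM + 0.1) scale, with 95% intervals from the variance of each gene. Ogn lies below 0 against both references, and relative to the stromal markers the other 7 intervals hold 0. The positions of Aspn, Podn and Omd depend on the pseudocount.

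Other genes of the family followed in part. Of 9 relatives, 4 were tested, 2 were lower and 2 did not pass. Podnl1, a podocan-like gene, was lower (2.51 ± 0.269 to 0.922 ± 0.248 RPKM, log2 change -0.88, adjusted p = 0.000414 by limma), and so was Ecm2, the neighbour of Aspn (0.416 ± 0.0856 to 0.0763 ± 0.0363 RPKM, -0.39, adjusted p = 0.00216). Tsku, a secreted tsukushi protein, had a log2 change of -0.15 (adjusted p = 0.300) at 7.64 and 6.79 RPKM, and Chadl one of 0.09 (adjusted p = 0.356). Optc was at 0.255 RPKM in control 1 and at the lowest listed value elsewhere, Chad, Nyx and Epyc were under 0.1 RPKM in every library, and Kera was at the lowest listed value in all 6. All 4 genes of the chromosome 13 row, Ecm2, Aspn, Omd and Ogn, were therefore lower, while Cenpp, within which they lie, was at 4.59, 3.19 and 3.58 RPKM in controls and 3.91, 3.36 and 3.73 RPKM after siRNA. Of these, Ecm2 and Omd averaged under 0.1 RPKM after siRNA and were tested only through their controls.

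The enzymes that build the sugar chains of these proteins shifted less. Of 28 chain synthesis genes tested, 17 were lower, 3 higher and 8 did not pass, with a median log2 change of -0.33. Chpf, a chondroitin polymerizing factor, fell from 25.6, 22.1 and 27.3 RPKM in controls to 4.55, 5.74 and 8.64 RPKM (log2 change -1.86, adjusted p = 0.000115 by limma), and Csgalnact1, which starts chondroitin chains, from 3.70 ± 0.768 to 1.07 ± 0.301 RPKM (-1.18, adjusted p = 0.000330). Chst13, a chondroitin sulfotransferase, was at 1.02, 1.04 and 1.06 RPKM in controls and at 0.031, 0.031 and 0.001 RPKM after siRNA (adjusted p = 1.1e-05 by limma). With a mean of 0.021 RPKM after siRNA, it passed the limit of 0.1 RPKM only through its controls. Xylt1, the xylosyltransferase that attaches the first sugar of such chains, rose from 5.41 ± 1.25 to 11.1 ± 0.220 RPKM (0.93, adjusted p = 0.000716), and B3gnt7, of keratan sulfate synthesis, from 0.923 ± 0.299 to 1.74 ± 0.213 RPKM (0.52, adjusted p = 0.00940).

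The collagens that SLRPs bind were lower as well. Of 13 collagen genes, 11 were lower and 2 did not pass, with a median log2 change of -2.23. Col3a1 of type III collagen had the most negative log2 change, from 124.6 ± 31.3 to 14.1 ± 5.43 RPKM (log2 change -3.10, adjusted p = 5.52e-05 by limma), followed by Col6a2 (59.4 ± 10.9 to 7.49 ± 2.27 RPKM, -2.85). The added 1 RPKM compresses the weaker collagen genes, and by the ratio of means the fall of Col3a1 was not the largest. Col1a1 went from 488.4 ± 144.4 to 72.1 ± 28.5 RPKM (-2.78, adjusted p = 0.000122) and Col1a2 from 436.9 ± 96.4 to 76.4 ± 29.9 RPKM (-2.55, adjusted p = 0.000131).

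Receptors and growth factors that SLRPs bind moved in both directions. Of 20 such genes tested, 10 were lower, 6 higher and 4 did not pass, with a median log2 change of -0.18. Tgfb3, a TGF-beta ligand, fell from 29.5 ± 2.09 to 4.95 ± 2.18 RPKM (log2 change -2.42, adjusted p = 8.18e-05 by limma), Tgfb2 by 1.21 and the receptor Egfr by 1.07 on the log2 scale. The receptor gene Tgfbr1 rose from 24.9 ± 2.18 to 43.1 ± 3.01 RPKM (0.77, adjusted p = 0.000169), and the endocytic receptor gene Lrp1 from 232.0 ± 58.0 to 334.6 ± 25.2 RPKM (0.55, adjusted p = 0.0214). P2rx7, the ATP-gated channel gene that the study followed and that biglycan signalling has been linked to, was at 32.1, 29.7 and 32.9 RPKM in controls and 5.85, 7.90 and 7.80 RPKM after siRNA (4.39-fold lower, adjusted p = 7.05e-06).

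Proteases that process SLRPs or the collagen around them were mostly lower. Of 12 tested, 10 were lower, 0 higher and 2 did not pass, with a median log2 change of -1.22. Bmp1, the protease that removes the propeptide of biglycan, fell from 42.8 ± 3.75 to 9.02 ± 2.02 RPKM (log2 change -2.14, adjusted p = 1.62e-05 by limma), and its enhancer Pcolce from 48.3 ± 4.34 to 9.93 ± 4.04 RPKM (-2.23, adjusted p = 0.000121). The gelatinase gene Mmp2 fell by 2.43 and Adamts5, an aggrecanase gene, by 2.16 on the log2 scale.

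Most stromal markers fell with the SLRP genes, while macrophage markers moved in both directions. Of 14 stromal markers tested, 9 were lower, 2 higher and 3 did not pass, with a median log2 change of -1.52. The marrow chemokine gene Cxcl12 fell from 38.9 ± 6.37 to 3.99 ± 0.832 RPKM (log2 change -3.00, adjusted p = 4.81e-06 by limma), Pdgfra by 2.48, Pdgfrb by 2.32 and Loxl1 by 1.92, whereas Vcam1 rose by 1.67 and S100a4 by 1.12. The summed level of the stromal list, in which S100a4 is the largest entry, was 303.3 to 335.8 RPKM in controls and 333.9 to 343.7 RPKM after siRNA. Of 14 macrophage markers, 3 were lower, 6 higher and 5 did not pass, and their summed level was 8002 to 10613 RPKM in controls and 15590 to 18448 RPKM after siRNA. Lyz2, the lysozyme gene, rose from 4439 ± 782.9 to 11321 ± 1444 RPKM and made most of that difference, since without it the sums were 4454 to 5600 against 5720 to 5934 RPKM. Mertk rose by 1.00, Cd163 by 0.60, and Fcgr1 and Aif1 fell by 1.93 and 0.50, while the pan-leukocyte gene Ptprc was at 52.6 and 53.0 RPKM.

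Markers of cells other than these were low. Of 6 tendon and cartilage markers tested, Mkx was lower (0.566 ± 0.109 to 0.112 ± 0.0254 RPKM, log2 change -0.49) and 5 did not pass, and the summed level of that list was 2.91 to 3.37 RPKM in controls and 1.47 to 3.10 RPKM after siRNA. The cartilage genes Acan and Hapln1 were at or near the lowest listed value. Of 4 endothelial markers tested, Vwf rose by 1.28 and Pecam1 by 0.23, Emcn fell by 0.26 and 1 did not pass, and the list summed to 2.86 to 3.28 RPKM in controls and 6.73 to 7.05 RPKM after siRNA. The part of cell composition in the lower SLRP levels was not tested.

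The genes most like the SLRP members over the 6 libraries, by the distance of their log2 profile from the median profile of the 8 members and among 6374 genes whose controls averaged 10 RPKM or more, were Cdkn2a, Dbn1, Ptrf, Tnk2 and Nckap1. Their root mean square distances were 0.0588 to 0.0859 on the log2 scale. By the ratio of mean RPKM they were 2.66-fold to 3.04-fold lower, against a median of 6.28-fold for the 8 members. The added 1 RPKM compresses the weak members in the median profile and hardly compresses genes at 10 RPKM or more, so the likeness holds on that scale only. Cdkn2a, for example, was at 23.5, 19.3 and 23.7 RPKM in controls and at 6.13, 7.71 and 10.0 RPKM after siRNA.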

How the data were processed

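Total RNA of 3 control and 3 siTet1/Tet2 BMMSC samples was sequenced as paired-end reads of 100 bases from a library kit that does not mark strand. The authors mapped the reads to GRCm38 and estimated abundance with DNASTAR Lasergene v15.0, and the deposited values are RPKM per gene (FPKM in the methods), with 0.001 as the lowest value. A deposited p-value column of the authors' own comparison was not used. Depth per library is not given in the sources used here. Steps in the low values gave estimates of 32400000 to 38600000 reads, but 55.9% to 61.9% of low values lay within 0.1 of a whole read (20% by chance), so no count test was run and read numbers are approximate.

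The 13266 genes whose mean reached 0.1 RPKM were fitted as log2(RPKM + 1) with limma 3.58.1 (R 4.3.3; lmFit, eBayes with trend, two-sided) and Benjamini-Hochberg adjustment. Of 37 repeated symbols, none a member, the row of highest mean entered. The fit was tested on simulated data. Fits relative to stromal markers or type I collagen used log2(RPKM + 0.1). Since the spread of a gene itself hardly entered the moderated fit after centring, a fit with the variance of each gene was run beside it. The fit relative to Bgn was added after the values were seen.

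The members, gene lists and tests were chosen with earlier results of these data known. Named genes were all members, Tet1 to Tet3, P2rx7 and the other family genes, in each other list at most the 4 largest changes past the threshold and the 2 largest against the list's majority, and the 5 genes most like the members. Genes outside this rule (Cenpp, Gm15851, Csf1r, Ptprc, Thy1, Lepr, Acan and Hapln1) were named after their values were seen. Deviations of same-numbered libraries from their group means correlated at 0.149, 0.117 and 0.462 across genes for replicates 1, 2 and 3, all above the limit of 0.1 set for pairing, although control 1 with siTet1/Tet2 replicate 2 (0.332) and control 2 with siTet1/Tet2 replicate 1 (0.205) correlated more than their own numbers. A fit with the replicate number as a block was run too, and it had been planned because both groups share the same replicate numbers.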

Additional observations from a re-analysis of the deposited data

How the results depend on the processing

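All 8 members tested were lower, with an adjusted p below 0.05 by limma, in every alternative that could fit them, with the highest adjusted p at 0.0478 for Podn, 0.0467 for Omd, 0.0257 for Fmod and 0.0220 for Aspn. The count of members lower was 5 with a mean of at least 1 RPKM, a filter that removes Aspn, Podn and Omd, and 8 otherwise. The count past p and fold was 5, with 8 for a pseudocount of 0.1 or 0.01 or the ratio of group means and 7 for libraries rescaled to the same sum. Apart from the ratio of means, with 11.8% of all genes, the share of all genes in these alternatives is not given. The median log2 change of -1.39 became -2.09 and -2.97 with those pseudocounts, -2.64 with the ratio of means, -1.96 with the filter at 1 RPKM and -1.74 with libraries rescaled to the same sum. The weaker compression or the genes left out change these values by construction. Rescaling came before 1 was added, so it changes the compression too. It moved the log2 change of Bgn from -1.96 to -2.03 and that of the weaker Dcn from -1.23 to -1.60. Quantile normalization moved the median of all genes by 0.14 on the log2 scale and gave -1.18. Leaving out each library gave -1.57 to -1.25.

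With the replicate block, the counts stayed at 8 and 5 and the median at -1.39, and it changed no other call on the lower side. Relative to the stromal markers, 2 members were lower, 1 with a pseudocount of 1 or the variance of each gene, 4 with 0.01 (Ogn, Prelp, Aspn and Podn) and 1 to 2 with each library left out (2 only without siTet1/Tet2 replicate 3, and Ogn alone otherwise). Relative to Bgn, 1 member was lower, and 1 to 3 with each library left out. In the main fits 1.25% of all genes were lower relative to the stromal markers and 1.42% relative to Bgn. The share of all genes in the other fits is not given, so their counts of members cannot be set against it. Ogn was lower relative to all 3 references in each alternative run. Depth limits Lum, Omd and the lowest libraries of Podn and Aspn, which rest on a few reads.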
